A study of Mus musculus with 4 samples.

Results

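The 10 genes described here belong to the Slc2a family, which encodes the GLUT transporters of glucose, fructose and related solutes. They were Slc2a1, Slc2a3, Slc2a4, Slc2a5, Slc2a6, Slc2a8, Slc2a9, Slc2a10, Slc2a12 and Slc2a13, taken as every non-control probe whose gene name in the scanner files equalled one of these symbols. This gave 19 probes of 60 bases, of 56605 non-control probes on the array, and 4 of the genes had 1 probe. The rule itself uses names only, but the family was chosen with earlier results of these data known.

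RNA of prefrontal cortex from B6J mice 3 months old was hybridised to 1 array for each of 4 groups. The groups were wild-type mice on a starch diet, which the series names as the control, wild-type mice on a sucrose diet, Glo1 heterozygotes on starch and Glo1 heterozygotes on sucrose. Feeding began at weaning, on postnatal day 21, and lasted about 70 days in all 4 groups. Glo1 encodes glyoxalase 1, which detoxifies methylglyoxal, a by-product of sugar breakdown. Each array held 1 pool of total RNA from 3 mice, so the 4 arrays carry no spread between mice, and no sample error or p-value exists for a difference between 2 of them. How the heterozygotes were made was not given in the labels. The 4 arrays lay on 1 slide, so position on the slide and group cannot be told apart.

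GLUT proteins move sugars across membranes down a concentration gradient, without spending energy. In brain, GLUT1 (Slc2a1) carries glucose across the capillary endothelium and into glia, and GLUT3 (Slc2a3) is the main glucose carrier of neurons. GLUT4 (Slc2a4) is the transporter that insulin brings to the cell surface in muscle and fat, GLUT5 (Slc2a5) carries fructose and is a microglial transcript in brain, and HMIT (Slc2a13) carries myo-inositol with protons.

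The probe sequences matter here because probes of 1 gene gave different values, so those of Slc2a12, Slc2a3, Slc2a6, Slc2a4 and Slc2a9 that were well above background on an array, the undetected Slc2a12 probe and the main endothelial carrier are shown first. They were read from the scanner files, 5′ to 3′ in the sense of the transcript, with mm9 coordinates. Capitals mark the hexamers AATAAA and ATTAAA, letters of the polyadenylation signal, searched on the probe strand only. Whole probes are given where they start before base 1500 of a RefSeq transcript, and 30 bases of each of the others.
Slc2a12 A_55_P2146555 (chr10:22424022-22424051, plus strand): ggtaaatcctcacggttttaaagccgtcta
Slc2a12 A_51_P345775 (chr10:22423536-22423565, plus strand): tggaaccttctattgttctcttatcaccaa
Slc2a12 A_66_P122739 (chr10:22384837-22384896, plus strand): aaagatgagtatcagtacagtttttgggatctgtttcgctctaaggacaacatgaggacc
Slc2a3 A_52_P354744 (chr6:122678105-122678134, minus strand): gtgcttacacatttcagaccctttaggcaa
Slc2a3 A_51_P384222 (chr6:122681586-122682419, minus strand): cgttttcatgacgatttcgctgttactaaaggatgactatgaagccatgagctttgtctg
Slc2a6 A_55_P1960238 (chr2:26876899-26876928, minus strand): actgtttttcaaAATAAAgagctgggccta
Slc2a6 A_55_P1960237 (chr2:26878631-26878690, minus strand): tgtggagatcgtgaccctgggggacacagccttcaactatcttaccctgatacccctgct
Slc2a4 A_51_P217498 (chr11:69756073-69756102, minus strand): caagggctgctgtATTAAAtgtgtatatag
Slc2a4 A_55_P2734837 (chr11:69757309-69757338, minus strand): tagaagtcttctaaaaAATAAAccagtggt
Slc2a9 A_66_P103342 (chr5:38808475-38808534, minus strand): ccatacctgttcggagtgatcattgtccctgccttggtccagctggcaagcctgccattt
Slc2a9 A_55_P2716122 (chr5:38874261-38874290, minus strand): aagggacattgatgatgacaacaatgtggt
Slc2a1 A_51_P464738 (chr4:118809864-118809893, plus strand): acccacttgtaaatacaccaacaaactcct

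A hexamer was found in 3 of the 19 member probes and in 14.0% of all probes well above background on every array. The 60 bases of Slc2a3 A_51_P384222 lie over 834 bases of genome, so this probe crosses an intron. The 2 downstream Slc2a12 probes start 486 bases apart both in the transcript (bases 3611 and 4097) and in the genome, and the remaining one starts at base 971. No annotation of this build was used here, so exon and UTR positions are not stated. No member probe shared its sequence with another probe of the array.

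The files showed 79.0%, 80.2%, 77.6% and 78.3% of the non-control spots well above background on the 4 arrays in the order wild-type starch, wild-type sucrose, heterozygous starch, heterozygous sucrose. In intensity units, the 75th percentile of the signal was 1780, 1906, 1882 and 1929. All levels below are signals as multiples of that percentile, listed in this order of arrays, and all differences are log2 differences of levels between single arrays. The Glo1 signal checked the genotype labels: its brightest probe lay 0.56 below wild-type on starch (log2 difference -0.56) and further below on sucrose (-0.86). Markers of neurons (8 of 8 measured, summed level 266 to 286) and of cortical excitatory neurons (8 of 8, 27.9 to 34.6) were present on every array. Choroid plexus markers stood apart on the heterozygous sucrose array: 9 of the 10 were measured, and their summed level was 0.99, 2.20, 0.93 and 70.0. Striatal markers differed between arrays as well, with summed levels of 34.1, 55.9, 52.2 and 29.3, and so did blood markers, with 277, 135, 235 and 152. In tissue RNA of this kind, fewer cells of a type and less RNA per cell cannot be told apart.

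All 10 genes had a probe well above background on all 4 arrays, and 13 of the 19 probes (68.4%) were, against 74.4% of all probes. A further 2 probes were above background on some arrays and 4 on none. The error given beside a difference of 2 arrays is the spot noise, the SD of a difference between single spots. It was estimated from the spots of probes and positive controls printed many times on an array, taking the 5 nearest in brightness, an estimate chosen after the data were seen. It covers neither labelling, hybridisation nor mice, so a difference beyond it says that the 2 pools' spots differed, not that the groups did. Differences beyond 2 SD of it were frequent on these arrays. For diet, 2 of 13 member probes passed that limit in wild-type mice (28.6% of all probes did) and 5 in heterozygotes (20% of all probes). For genotype, 1 passed on starch (26.2% of all probes) and 3 on sucrose (18.4%).

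At its brightest probe, no transporter gene spanned 2-fold over the 4 arrays. The widest span was 1.25-fold, at Slc2a4, and the narrowest, on the log2 scale, was 0.048, at Slc2a3. Over the 13 member probes the median span was 0.23 on the log2 scale, against 0.29 over all probes, and 3.88% of all probes spanned 2-fold. For diet, 0 of the 13 probes reached a 2-fold difference in wild-type mice (1.52% of all probes did) and 1 did in heterozygotes (1.54%). Between heterozygotes and wild-type mice the counts were 0 on starch (1.02% of all probes) and 1 on sucrose (1.64%). The diet difference in heterozygotes minus that in wild-type mice, called the interaction here, passed a log2 size of 1 at 1 member probe (2.74% of all probes). It was the same probe each time, Slc2a12 A_51_P345775, and each of these comparisons holds the heterozygous sucrose array. The comparisons that do not hold it are those with 0 calls.

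**Figure D1:**
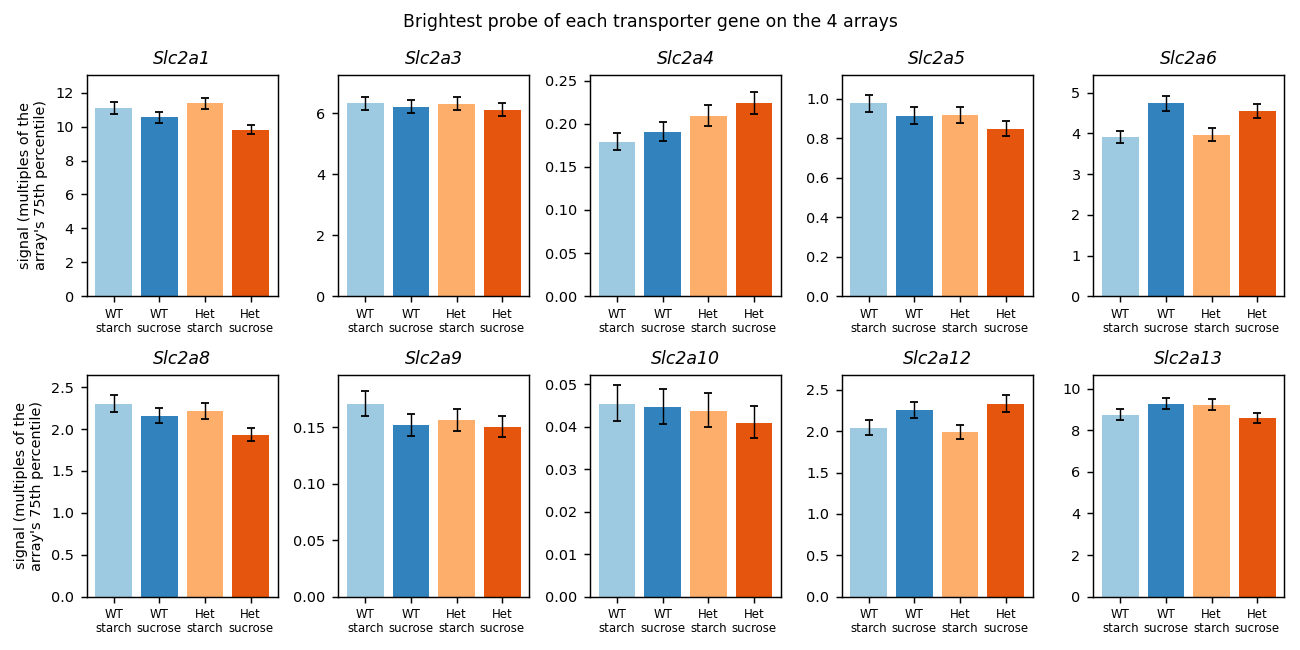
Level of the brightest probe of each of the 10 genes on the 4 arrays, as multiples of the array's 75th percentile, each panel with its own axis from 0. Bars are single arrays and error bars are plus and minus 1 SD of single-spot noise; no gene spans more than 1.25-fold.

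Slc2a1 (A_51_P464738, chromosome 4) had levels of 11.1, 10.6, 11.4 and 9.82. Both sucrose arrays lay below both starch arrays. The sucrose-minus-starch difference was -0.07 in wild-type mice, within 2 SD of spot noise (SD 0.06), and -0.21 in heterozygotes, beyond it. The heterozygote-minus-wild-type difference was 0.04 on starch and -0.10 on sucrose. Endothelial markers (10 of 10 measured, none past 2-fold in the 4 comparisons) had summed levels of 34.8, 26.4, 31.4 and 26.3, also lower on both sucrose arrays, while their median difference was -0.01 in wild-type mice and -0.12 in heterozygotes. The gap in the sums was mostly that of Ly6c1, a surface antigen gene, with diet differences of -0.67 in wild-type mice and -0.39 in heterozygotes, and 5 of the 10 markers were higher on sucrose in wild-type mice and 3 in heterozygotes. The part of endothelial RNA in the Slc2a1 values was not tested.

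Slc2a3 was the steadiest of the 10 genes at its brightest probe, A_52_P354744, with levels of 6.32, 6.20, 6.30 and 6.11. The 4 pairwise differences lay between -0.04 and 0.00 on the log2 scale, all inside the spot noise of 0.07. Its intron-crossing probe A_51_P384222 was dim, with levels of 0.041, 0.062, 0.048 and 0.048. There the wild-type sucrose array was the high one, with a difference from wild-type starch of 0.58 against a spot noise of 0.19. In heterozygotes the diet difference of this probe was -0.00, the genotype difference on sucrose was -0.38, and under normexp, a model-based background correction with an offset of 50 intensity units that shrinks differences of dim probes, the wild-type diet difference was 0.18 and the genotype difference on sucrose -0.16.

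**Figure D2:**
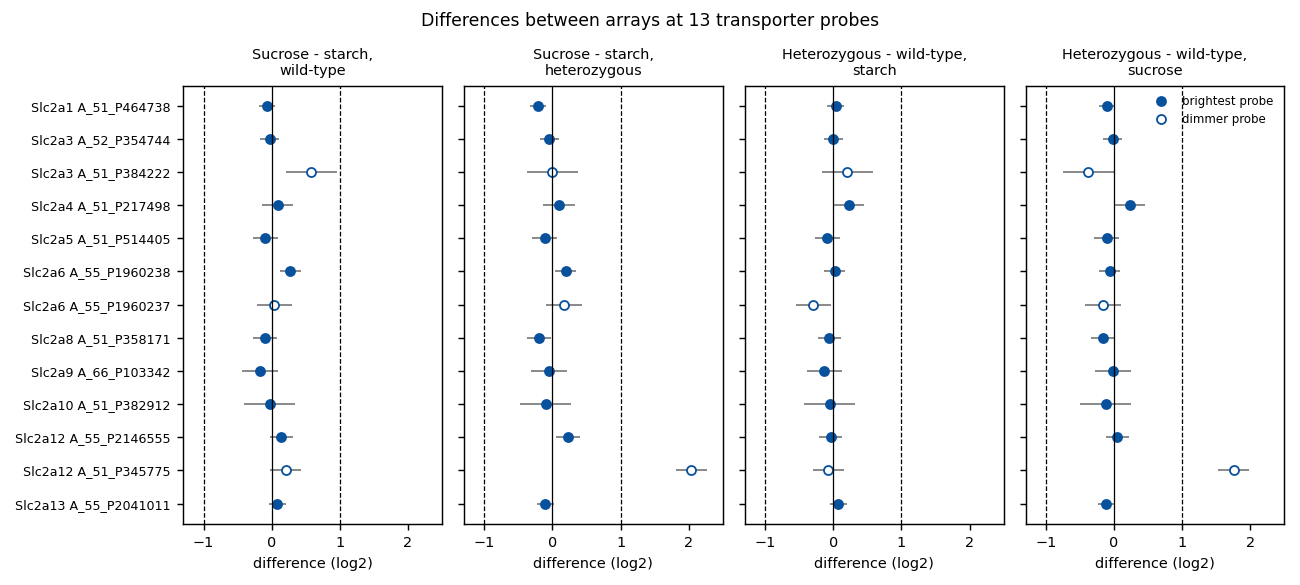
Log2 differences between single arrays in the 4 comparisons for the 13 member probes above background on all arrays. Filled points are the brightest probe of a gene, open points the others, bars are plus and minus 2 SD of spot noise and dashed lines mark 2-fold; only Slc2a12 A_51_P345775 lies past them, in the 2 comparisons that hold the heterozygous sucrose array.

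Slc2a4, the insulin-responsive carrier, was the only member whose heterozygous arrays both lay above the wild-type arrays. Its probe A_51_P217498 had levels of 0.179, 0.190, 0.209 and 0.223. The genotype difference was 0.22 on starch and 0.23 on sucrose, which is 1.17-fold on both diets and 1.96 and 2.01 times the spot noise SD of 0.11. The diet difference was 0.09 in both genotypes, within that noise. A second probe, A_55_P2734837 (transcript AK138832, chr11:69757309-69757368), was near the background, with 5.35, 13.3, 11.2 and 15.7 intensity units. It was well above background only on the 2 sucrose arrays, where it was at least 1.07-fold higher than on starch in wild-type mice and at least 1.22-fold higher in heterozygotes. For these bounds the starch side was put at the faintest signal that counted as well above background on that array, since the probe itself was fainter.

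The fructose carrier Slc2a5 (A_51_P514405, chr4:149517775-149517834) had levels of 0.977, 0.915, 0.918 and 0.847. The arrays ran from wild-type starch, the highest, to heterozygous sucrose, the lowest. No difference between neighbours in that order exceeded 2 SD of spot noise (SD 0.09), while the span from highest to lowest, 0.21 on the log2 scale, did. Sucrose was below starch by a difference of -0.09 in wild-type mice and -0.12 in heterozygotes. Microglial markers (10 of 10 measured, none past 2-fold) had summed levels of 124, 119, 113 and 117, with a median diet difference of -0.02 in wild-type mice and -0.01 in heterozygotes. On sucrose, a sugar made of glucose and fructose, the signal of this carrier was 0.936 times the starch level in wild-type and 0.923 times in heterozygous mice, both within 2 SD of spot noise.

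Slc2a6 encodes GLUT6, a transporter found mainly inside cells. Its brightest probe, A_55_P1960238, had levels of 3.92, 4.73, 3.97 and 4.54. Both sucrose arrays were higher than both starch arrays, by a difference of 0.27 in wild-type mice (1.21-fold) and 0.19 in heterozygotes (1.14-fold), each beyond 2 SD of spot noise (SD 0.08). The genotype difference was 0.02 on starch and -0.06 on sucrose. Over the 5 alternative scalings and background corrections the diet difference stayed between 0.25 and 0.30 in wild-type mice and between 0.17 and 0.22 in heterozygotes. With the mean over the gene's probes it was 0.16 in wild-type mice. The upstream probe A_55_P1960237, dimmer at 0.163, 0.167, 0.133 and 0.149, gave a diet difference of 0.04 and 0.17, both within 2 SD of its spot noise (SD 0.13). At that probe the heterozygous starch array was the low one, with a genotype difference of -0.29. A further Slc2a6 probe, A_55_P2739212, was above background on no array.

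Slc2a8 (A_51_P358171, chr2:32831712-32831771) encodes GLUT8, an intracellular hexose transporter. Its levels were 2.30, 2.16, 2.22 and 1.93. Heterozygous sucrose was the lowest, and both sucrose arrays lay below both starch arrays. The diet difference was -0.09 in wild-type mice and -0.20 in heterozygotes, the second beyond 2 SD of spot noise (SD 0.09). The genotype difference was -0.06 on starch and -0.16 on sucrose.

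Slc2a9 encodes a urate carrier and Slc2a10 encodes GLUT10. Slc2a9 A_66_P103342 (chr5:38808475-38808534) had levels of 0.171, 0.152, 0.156 and 0.151, with no difference beyond 2 SD of spot noise (SD 0.13). A second Slc2a9 probe, A_55_P2716122, was well above background on the wild-type starch array only, at 28.0 intensity units, and read 2.65, 2.94 and 3.01 on the others. It was at least 2.85-fold lower on wild-type sucrose and at least 2.35-fold lower on heterozygous starch than on wild-type starch, which A_66_P103342 did not show. Slc2a10 A_51_P382912 (chr2:165344713-165344772) was dim, at 0.045, 0.045, 0.044 and 0.041, and all its differences lay within its spot noise of 0.19.

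Slc2a13, the proton myo-inositol carrier, was measured by A_55_P2041011 (chr15:91098249-91098308) at levels of 8.76, 9.28, 9.23 and 8.59. Its diet difference was 0.08 in wild-type mice and -0.10 in heterozygotes, and it had the lowest interaction of the brightest probes, -0.19. Neither diet difference passed 2 SD of spot noise (SD 0.06), while the interaction, a difference of 4 spots, was 2.19 times its own spot noise SD. Over the 13 member probes 3 interactions passed 2 SD (19.1% of all probes did): this one, Slc2a3 A_51_P384222 and Slc2a12 A_51_P345775. That of the Slc2a3 probe was -0.58, and -0.18 under normexp.

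Slc2a12 encodes GLUT12, and its probes did not give 1 answer. The brightest, A_55_P2146555, had levels of 2.04, 2.26, 1.99 and 2.33, so both sucrose arrays were above both starch arrays. Its diet difference was 0.14 in wild-type mice and 0.23 in heterozygotes, the second beyond 2 SD of spot noise (SD 0.09), and its genotype difference was -0.04 on starch and 0.05 on sucrose. The probe that starts 486 bases upstream, A_51_P345775, had levels of 0.154, 0.178, 0.147 and 0.602. Heterozygous sucrose stood alone, and the other 3 arrays lay within 0.147 to 0.178. The diet difference was 2.04 in heterozygotes (4.11-fold) and 0.20 in wild-type mice, the genotype difference was 1.76 on sucrose (3.38-fold) and -0.08 on starch, and the interaction was 1.83. These are large against the spot noise of 0.11. Under the 5 alternative scalings and background corrections they stayed between 1.79 and 2.04, between 1.58 and 1.76, and between 1.65 and 1.85. The third probe, A_66_P122739, was well above background on no array, with 4.21, 2.88, 4.86 and 9.53 intensity units.

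The array that was high for A_51_P345775 also had the highest summed levels of choroid plexus and ependymal markers, which were measured on all 4 arrays. Meningeal fibroblast markers (8 of 8 measured, none past 2-fold in the 4 comparisons) were highest there too, with summed levels of 9.28, 9.33, 10.1 and 12.3. Of the 9 choroid plexus markers measured, 8 were 2-fold or more higher on heterozygous sucrose than on heterozygous starch, and 8 than on wild-type sucrose. Ttr, the transthyretin gene made abundantly by choroid plexus epithelium, had levels of 0.26, 1.42, 0.10 and 58.7. Kcne2, another marker of that epithelium, was dim on the other arrays, at 0.013, 0.042 and 0.013, and was at 1.39 there. All 5 ependymal markers measured (of 6) were 2-fold or more higher on heterozygous sucrose than on heterozygous starch, and 3 of the 5 than on wild-type sucrose, with summed levels of 0.78, 0.64, 0.59 and 1.95. The part of these marker lists in the Slc2a12 signal was not tested. A probe that passes 2-fold while its gene's brightest probe stays within 1.5-fold was rare among the 14822 dimmer probes of all genes, at 114 (0.769%) between the heterozygous arrays and 119 (0.803%) between the sucrose arrays. Among dimmer probes past 2-fold it was the majority, at 67.1% of 170 and 68.8% of 173.

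**Figure D3:**
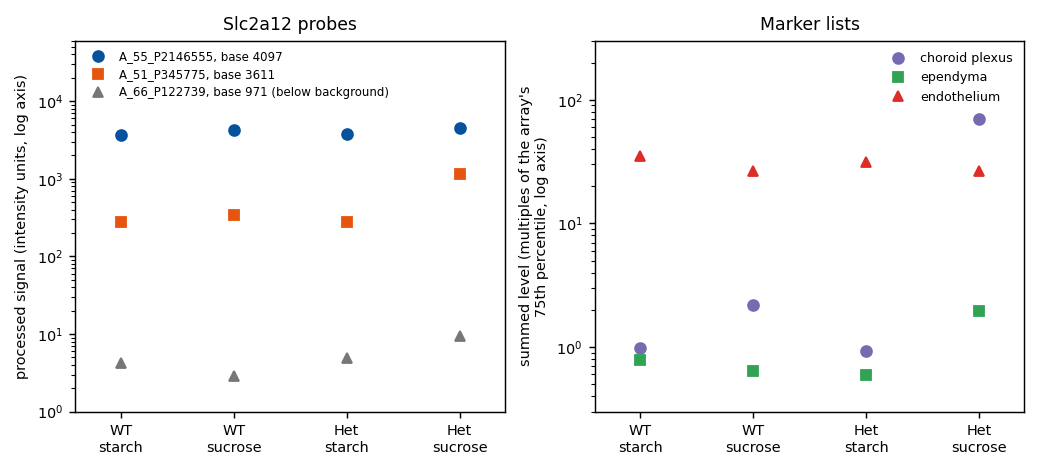
Left, processed signal of the 3 Slc2a12 probes on the 4 arrays on a log axis, named with their first base in the transcript; levels of different probes are not comparable with each other. Right, summed level of the choroid plexus, ependymal and endothelial marker lists on the same arrays on a log axis. All 3 probes, of which A_66_P122739 is below background throughout, are highest on heterozygous sucrose. So are the choroid plexus list, at 70.0, and the ependymal list, at 1.95.

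By the naming rule, genes alike in profile were to be given for members whose brightest probe spanned 2-fold, and 0 members did. For A_51_P345775, chosen after its values were seen, the nearest of 20654 genes over the 4 arrays were Ttll6, Gm16897 and LOC328448, at Euclidean distances of 0.10, 0.16 and 0.17 between centred log2 profiles. All 3 were dim, and their levels on heterozygous sucrose were 0.054, 0.130 and 0.100, each above the same gene's levels on the other arrays. Being highest there follows from choosing them by likeness to the profile of this probe, so it is no separate result.

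Across the 10 genes at their brightest probe, the diet differences were small and often ran the same way in both genotypes. In wild-type mice they ran from -0.17 (Slc2a9) to 0.27 (Slc2a6), with a median of -0.03. In heterozygotes they ran from -0.21 (Slc2a1) to 0.23 (Slc2a12), with a median of -0.08, while the median over all probes was -0.00 in both. The sign was the same in both genotypes for 9 of the 10 genes, 3 higher on sucrose (Slc2a4, Slc2a6 and Slc2a12) and 6 lower (Slc2a1, Slc2a3, Slc2a5, Slc2a8, Slc2a9 and Slc2a10), against 60.3% of all genes. These 2 comparisons share no array. However, both diet differences were within 2 SD of spot noise at Slc2a3, Slc2a4, Slc2a5, Slc2a9 and Slc2a10. Their signs therefore cannot be told from spot noise. Only Slc2a6 passed that limit in both genotypes. Both sucrose arrays lay clear of both starch arrays for 7 of the 10 genes, 2 above and 5 below, where 42.2% of all genes did so. With the mean over a gene's probes these counts were 8 of 10 (59.0% of all genes) and 6 of 10 (41.0%), as Slc2a3 then differed by 0.28 in wild-type mice and -0.02 in heterozygotes. With spot noise from the 50 nearest repeated probes, 4 of 13 member probes passed 2 SD for diet in wild-type mice (52.1% of all probes) and 6 in heterozygotes (41.9%). For genotype this estimate gave 3 member probes on starch and 5 on sucrose, but the shares of all probes were not computed, so these counts cannot be read as a result.

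The genotype differences on starch ran from -0.13 (Slc2a9) to 0.22 (Slc2a4), with a median of -0.02, and on sucrose from -0.16 (Slc2a8) to 0.23 (Slc2a4), with a median of -0.08. The sign was the same on both diets for 6 of 10 genes, against 57.4% of all genes. Heterozygous arrays lay clear of wild-type arrays for 2 of 10, Slc2a4 above and Slc2a10 below, against 34.7% of all genes. With the levels of each member probe put in order, 37 of the 39 steps between neighbours were within 2 SD of spot noise. The exceptions were the step from heterozygous starch to heterozygous sucrose at Slc2a6 A_55_P1960238 and from wild-type to heterozygous sucrose at Slc2a12 A_51_P345775. Neighbours in a sorted order are the closest levels of a probe, so most steps are small by the way they were taken. No such share over all probes was computed. Unsorted, 5 of the 13 member probes passed 2 SD for diet in heterozygotes (20% of all probes).

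The additive fit for diet and genotype over all 4 arrays (limma, 42094 probes, Benjamini-Hochberg adjustment) takes the interaction as error and has 1 residual degree of freedom. It called 0 probes (0% of those tested) for either factor, while 3704 had an unadjusted p under 0.05 for diet and 2704 for genotype. For diet, with normexp background correction limma called 28 probes and with a trended prior variance 1. Among the members the diet effect of Slc2a6 A_55_P1960238 was 0.23 ± 0.095 (SE, limma adjusted p = 0.593). The diet effect of Slc2a12 A_51_P345775 was 1.12 ± 0.50 (SE, limma adjusted p = 0.608), and the genotype effect of Slc2a4 A_51_P217498 was 0.23 ± 0.092 (SE, limma adjusted p = 0.733).

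Sugar carriers outside the 10 genes were taken from a list of 16, of which 14 were measured; Slc2a7 and Slc5a1 were not well above background on all arrays. At the brightest probe of each gene, their median diet difference was 0.21 in wild-type mice and 0.10 in heterozygotes, against -0.00 and 0.00 over all genes. By that probe 10 of 14 were higher on sucrose in each genotype, and the share of all genes that were higher was not computed. These values depend on the probe. With the mean over a gene's probes the wild-type diet difference of Slc37a4 went from 0.28 to -0.78. That of Slc37a3 went from 0.20 to 0.00, and that of Slc5a3 from -0.51 to -0.37. Only Slc5a2, which encodes the sodium-glucose cotransporter SGLT2, passed 2-fold, among 1.48% of all genes in the wild-type diet comparison. It was dim, with levels of 0.0103, 0.0407, 0.0102 and 0.0122, and the wild-type sucrose array was the high one. Its diet difference in wild-type mice was 1.97, its genotype difference on sucrose -1.73 (1.71% of all genes passed 2-fold there) and its interaction -1.71 (2.88%). Averaged with its other probe, these were 1.06, -0.92 and -0.78, so that only the diet difference stayed past 2-fold. At the low end in wild-type mice was Slc5a3, a myo-inositol cotransporter, with a diet difference of -0.51. In heterozygotes the list ran from -0.41 (Slc5a9, dim on every array) to 0.62 (Slc37a2, a sugar phosphate exchanger).

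Hexose phosphorylation, the step that traps the transported sugar in the cell, was represented by 8 genes, all measured, and 0 passed 2-fold in the 4 comparisons, where 0.813% to 1.77% of all genes did. The median diet difference was -0.01 in wild-type mice and 0.23 in heterozygotes. Hkdc1, which encodes a hexokinase-like enzyme, was the highest of the list in wild-type mice, with levels of 2.45, 3.55, 2.29 and 3.15. Both its sucrose arrays were above both starch arrays, with diet differences of 0.53 and 0.46. Hk3 was the lowest in wild-type mice (-0.27).

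The 16 genes of GLUT trafficking and turnover were all measured, and 0 passed 2-fold in the 4 comparisons, against the same 0.813% to 1.77% of all genes. Their median diet difference was -0.02 in wild-type mice and 0.01 in heterozygotes. Arrdc4, an arrestin that, like Txnip, lowers glucose uptake, was the highest in both genotypes (0.27 and 0.47), from levels of 0.477, 0.576, 0.405 and 0.560. Tbc1d4, the Rab GTPase-activating protein that holds GLUT4 inside the cell, was the lowest in heterozygotes (-0.42) and the highest in genotype on starch (0.32). Stx4a, a syntaxin of the plasma membrane, was the lowest in wild-type mice (-0.17), and its diet difference in heterozygotes was -0.25.

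Among the 6 monocarboxylate carriers and their partner proteins, all measured, 1 passed 2-fold, in the heterozygous diet comparison (1.77% of all genes did), in genotype on sucrose (1.71%) and in the interaction (2.88%). Slc16a8, which encodes the lactate carrier MCT3 known from retinal pigment epithelium and choroid plexus, had levels of 0.025, 0.028, 0.019 and 0.074. Heterozygous sucrose was the high array, as for the Slc2a12 probe and the choroid plexus markers, and the part of the latter was not tested. Its diet difference was 1.96 in heterozygotes and 0.13 in wild-type mice, its genotype difference on sucrose was 1.42 and its interaction 1.83. The highest diet difference in wild-type mice was that of Slc16a3 (0.50), and the lowest that of Bsg, the partner protein of MCT1 (-0.36).

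**Figure D4:**
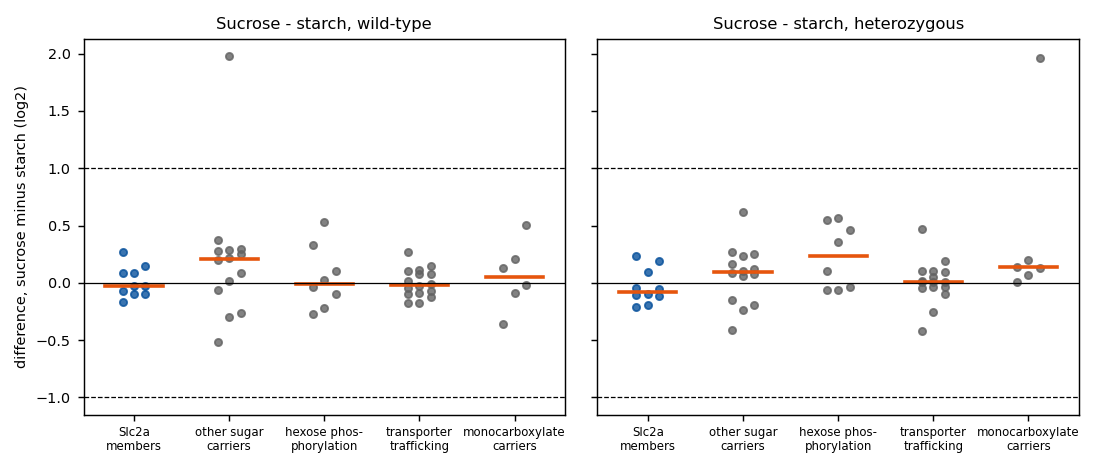
Log2 difference of sucrose minus starch in wild-type (left) and heterozygous mice (right) for the 10 Slc2a genes and 4 lists of other sugar-handling genes, 1 point for each gene at its brightest probe. Orange lines are medians and dashed lines mark 2-fold; only Slc5a2 at 1.97 (left) and Slc16a8 at 1.96 (right) lie past them.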

How the data were processed

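The deposited intensity values came from 1-colour (Cy3) Agilent scanner files, 1 for each pool of 3 mice, labelled from 200 ng of RNA per the labels. Agilent Feature Extraction 11.5.1.1, named in the submitters' processing notes, subtracted background and detrended within the array, per the file headers. The authors' deposited value table holds a ratio, the processed signal over the array's 75th percentile.

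Levels here are the processed signal over the 75th percentile of the non-control spots, outlier spots left out, and differences are taken between log2 values of the levels. Differences need a probe well above background on both arrays, and 2-fold or more counts as a call. Neither replicates nor tests exist for single arrays. The precision is limited by 1 array a group. Additive models were fitted with limma 3.58.1 (R 4.3.3). Spot noise used the probes printed 10 times and 12 positive controls. A gene's brightest probe stands for it in counts over genes. Members, lists and tests were chosen with earlier results of these data known. Named were all members, list genes past 2-fold or else the highest and lowest, genes alike in profile, and Glo1. A result for 1 list gene is not reported here. Pseudocounts were not needed.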

Additional observations from a re-analysis of the deposited data

How the results depend on the processing

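Of 65 differences of member probes, 59 kept their sign under all 5 alternatives of scaling and background (median, quantile and loess scaling, normexp, the authors' value table), and 0 results past 2-fold reversed. The other 6 were small differences of Slc2a3, Slc2a4, Slc2a5 and Slc2a10, and no scaling moved the median of all probes by more than 0.045. Without the filter on dim probes 3 member probes passed 2-fold for diet in wild-type mice, 2 for diet in heterozygotes, 1 for genotype on starch, 3 for genotype on sucrose and 3 for the interaction. Among probes above the median signal the single member call of diet in heterozygotes, genotype on sucrose and the interaction went to 0. Leaving out the heterozygous sucrose array, chosen after seeing the data, leaves only the comparisons with 0 calls at probes measured on both arrays, so its count of 0 is no check. With the mean over a gene's probes, 0 other sugar carriers passed 2-fold for genotype on sucrose, and 1 did for the interaction, Slc37a4 at 1.18 in place of Slc5a2. The same mean moved Slc2a12 to 1.13 for diet in heterozygotes, 0.90 for genotype on sucrose and 0.96 for the interaction, and Slc2a3 from -0.03 to 0.28 and Slc2a6 from 0.27 to 0.16 for diet in wild-type mice. The counts over all probes (660, 653, 434, 706 and 1155 for diet in wild-type and heterozygous mice, genotype on starch and sucrose, and interaction) were 192, 230, 107, 260 and 356 with normexp, 3305, 2984, 3053, 3083 and 5374 without the filter, 94, 81, 41, 81 and 120 above the median signal, and 2771, 2112, 2145, 2011 and 3866 at 1.5-fold. Limma's diet calls, 0, were 28 with normexp and 1 with a trended prior. The cause of these shifts was not tested. Spot noise from the 50 nearest repeated probes had a median of 0.076 over member probes against 0.092, and differs most for dim probes, where nearly all repeated probes are brighter. No paired analysis was possible because each group has 1 array.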
